A study of Mus musculus with 6 samples.

Results

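The NDRG (N-myc downstream-regulated gene) family has 4 members in the mouse, Ndrg1, Ndrg2, Ndrg3 and Ndrg4, and each has 1 row among the 45706 genes of the deposited count table. The family was chosen by the counts of Ndrg2, which were strongly lower in the knockdown of these same samples, so the values of the members are a description, given with no p, and their place past or short of a threshold supports nothing. RNA was sequenced from 3T3-L1 cells, a line of mouse embryo fibroblasts that turns into adipocytes in culture, in 3 scrambled control samples and 3 RBMS1 knockdown samples. The knockdown cells stably carried a lentiviral short hairpin RNA against Rbms1, which encodes an RNA-binding protein, and the controls a scrambled hairpin. Both lines had been selected with puromycin, both received IBMX, insulin, dexamethasone and rosiglitazone, and both were harvested on day 7. Whether the 3 samples of a group came from separate transductions is not given, so the spread between them may be that of cultures of 1 selected line, and the line and the knockdown cannot be told apart.

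NDRG proteins share an alpha/beta hydrolase fold but are not known to act as hydrolases. NDRG1 and NDRG2 are phosphorylated by the kinases SGK1 and AKT, which lie downstream of insulin and of mTORC2, and NDRG1 is a widely used readout of SGK1. NDRG1 is induced by low oxygen and by glucocorticoids and is repressed by MYC, NDRG2 is repressed by MYC and is known as a tumour suppressor and a marker of astrocytes, NDRG3 binds lactate and accumulates under low oxygen, and NDRG4 is found mostly in brain and heart.

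Total counts ran from 3142695 to 11073098 per sample. Genes derived from ribosomal RNA took 43.0% of the counts in control 2 and 8.12% to 17.8% in the other samples. Of the 45706 genes, 11440 passed the filter on low counts, and 140 of these passed an adjusted p of 0.1 in edgeR, which is 1.22% of the tested genes, with 104 lower and 36 higher in the knockdown. Levels are given as CPM, the usual count per library size, with TMM-scaled library sizes. Rbms1 itself stood at 113, 102 and 99.6 CPM in the controls and at 49.2, 61.4 and 84.0 CPM in the knockdown. Its groups did not overlap, and the log2 fold change was -0.69 (SE 0.20, edgeR adjusted p = 0.185). With each sample left out in turn it ran from -0.52 to -0.92 (edgeR adjusted p of 0.0708 to 0.454), the largest difference coming when knockdown 3, the knockdown sample with the most Rbms1, was left out. The labels call the cells fibroblasts, and all 12 adipocyte markers were detected and tested, with summed levels of 24289 to 27259 CPM in the controls and 12935 to 23156 CPM in the knockdown. Lpl, the lipoprotein lipase, carried much of that sum, with means of 12915 and 7051 CPM, and without it the sums overlapped, at 12013 to 13350 CPM and 7586 to 12946 CPM. Of the 12 markers, 11 had a log2 fold change below 0, and 1 passed the test, Retn, the hormone resistin (-1.67, SE 0.36, edgeR adjusted p = 0.0967), while DESeq2 called 3, beside 3.2% of all genes it tested. The other marker, Cd36, a fatty acid transporter, had 0.72 (SE 0.21, edgeR adjusted p = 0.183), with every knockdown sample above every control. The groups did not overlap for 5 of the 12 markers, beside 18.5% of all tested genes. These were Cd36 and, with the knockdown lower, Lpl, Cebpa, Pnpla2 and Retn. Retn and Lpl lie on chromosome 8, whose genes were low in the knockdown as described with Ndrg4. Fabp4 lies in the first 50 Mb of chromosome 3, described with Abhd18. The 8 fibroblast markers summed to 8245 to 10168 CPM in the controls and 5713 to 10949 CPM in the knockdown, mostly from Col1a1, Col3a1 and Fn1. Of these 8, 5 were below 0, 0 passed in edgeR, and 1 was called by DESeq2, beside the same 3.2%. The groups did not overlap for 2 of them, Pdgfra (-0.87, SE 0.23) and Dlk1 (-0.84, SE 0.36), beside 18.5% of all tested genes. Each of the marker lists of macrophages, endothelium and glia summed to at most 3.39 CPM in any sample, and the leukocyte genes Adgre1 and Ptprc had no count. In bulk RNA, fewer cells of a type and less RNA per cell cannot be told apart, and the part of the adipocyte markers in the values below was not tested.

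Ndrg2 (ENSMUSG00000004558; GRCm38 chromosome 14, 51905271 to 51914158, minus strand) had 38, 18 and 32 counts in the controls and 3, 1 and 8 counts in the knockdown. These are 6.09, 8.93 and 5.51 CPM against 0.431, 0.117 and 0.587 CPM. Every knockdown sample lay far below every control, although knockdown 3 is the deepest of the 6 libraries. The mean level was 6.84 ± 1.83 CPM (SD, n = 3) in the controls and 0.378 ± 0.240 CPM (SD, n = 3) in the knockdown, an 18.1-fold difference, and the fitted log2 fold change was -4.01 (SE 0.54). With the counts pooled by group, 88 against 12, the ratio of knockdown to control was 0.0658, with a 95% exact interval of 0.0328 to 0.121 that covers counting error only. The deepest control gave only 38 counts, so the size of the fold rests on few reads.

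**Figure D1:**
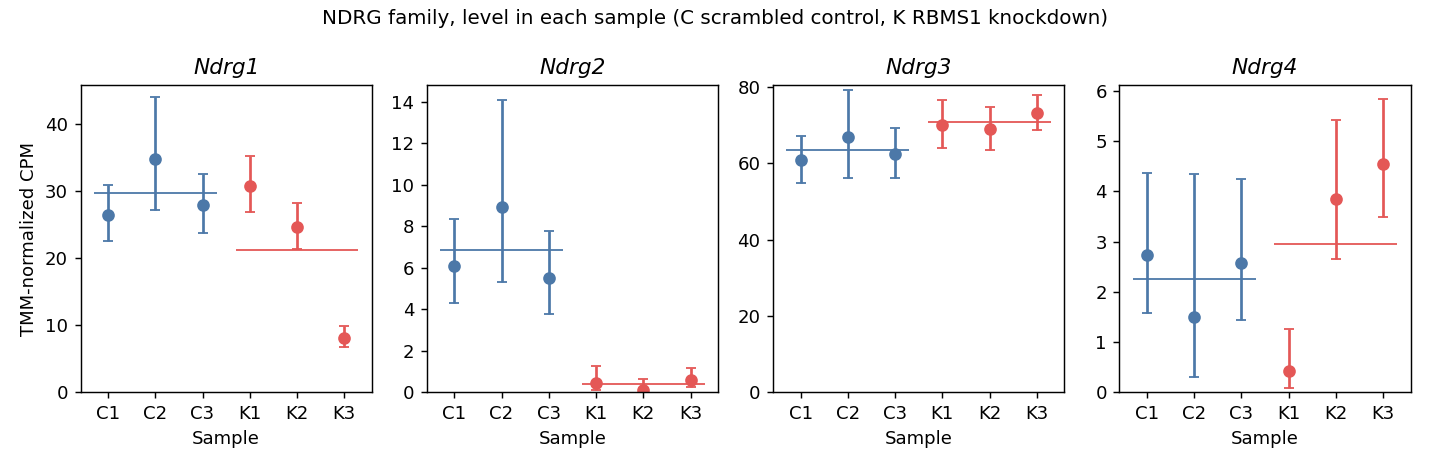
Level of each NDRG gene in each sample, in TMM-normalized CPM on linear axes that start at 0, with 95% exact Poisson intervals for counting error and a line at each group mean (C, scrambled control, blue; K, RBMS1 knockdown, red). Ndrg2 is near 0 in all 3 knockdown samples, Ndrg1 is low in knockdown 3 alone at 8.15 CPM, Ndrg3 lies within 60.8 to 73.3 CPM throughout, and Ndrg4 is low in knockdown 1 alone.

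The bases before 2 of the 3 Ndrg2 start sites in the RefSeq promoter table (GRCm38.p6) are shown because Ndrg2 is the member that differed. The capitals mark GGGCGG, the GC box, and TATAAA, the TATA box, on either strand. The first lies at chr14:51914005-51914254 and the second at chr14:51913330-51913579, both on the minus strand.
Ndrg2 start 1: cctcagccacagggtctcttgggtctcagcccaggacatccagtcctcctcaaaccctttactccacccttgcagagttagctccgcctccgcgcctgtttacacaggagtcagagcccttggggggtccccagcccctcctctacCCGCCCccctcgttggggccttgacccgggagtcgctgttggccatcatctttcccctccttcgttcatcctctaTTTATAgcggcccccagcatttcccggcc
Ndrg2 start 3: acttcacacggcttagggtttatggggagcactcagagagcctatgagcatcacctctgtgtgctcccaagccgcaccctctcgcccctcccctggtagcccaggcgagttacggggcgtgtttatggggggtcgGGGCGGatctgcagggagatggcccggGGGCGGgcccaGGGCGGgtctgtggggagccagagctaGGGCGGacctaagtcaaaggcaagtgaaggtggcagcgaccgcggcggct
The E-box letters CACGTG, which MYC is known to bind, and the hypoxia core ACGTG, which also lies within CACGTG, were absent from all 3 Ndrg2 windows, as they are from most windows, since 6.02% and 16.6% of 32817 windows of 250 bases hold them on either strand. GGGCGG was in 2 of the 3 Ndrg2 windows and in 32.7% of all windows, and TATAAA was in 1 of the 3 and in 12.4% of all. The first window was 62.0% and the third 66.0% G and C, against a median of 52.4% over all windows. Of the other members, 1 of 4 Ndrg4 windows and neither of the 2 Ndrg3 windows held CACGTG. No window was available for Ndrg1, so its promoter was not searched.

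The tested genes on either side of Ndrg2 stood apart from it. Mettl17, 12232 bases away, had a log2 fold change of 0.39 (SE 0.29), and Arhgef40, 70561 bases away, had -0.06 (SE 0.16). Neither passed the edgeR test (adjusted p = 0.636 and 0.924). Over the 374 tested genes of chromosome 14 the median log2 fold change was -0.04. No antisense gene overlapped Ndrg2 in the annotation.

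Ndrg1 (ENSMUSG00000005125; chromosome 15, 66929318 to 66969640, minus strand) was low in 1 knockdown sample only. It had 26.4, 34.7 and 27.9 CPM in the controls and 30.8, 24.5 and 8.15 CPM in the knockdown, from 70 to 214 counts a sample. The groups overlapped, with knockdown 1 and 2 in or just under the control range and knockdown 3 far below it. The log2 fold change was -0.49 (SE 0.40, 95% interval -1.39 to 0.41), and it was -0.09 without knockdown 3 and -0.86 without knockdown 1. The antisense genes Gm2895 and Gm17035, which overlap Ndrg1, had 2 counts and 1 count over all samples.

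Ldha, the lactate dehydrogenase subunit that makes lactate, and Egln1, the oxygen-sensing prolyl hydroxylase, both known to be induced by low oxygen, were low in the same sample. Ldha stood at 911, 871 and 840 CPM in the controls and at 896, 456 and 287 CPM in the knockdown. Egln1, chosen after its values were seen, stood at 136, 133 and 159 CPM and at 186, 85.6 and 42.4 CPM. Relative to its own control mean, knockdown 3 held 0.274 of Ndrg1, 0.329 of Ldha and 0.297 of Egln1, while knockdown 2 held 0.827, 0.522 and 0.60. Neither Ldha nor Egln1 passed the edgeR test (adjusted p = 0.476 and 0.721), and Egln1 lies on chromosome 8, whose genes were low in the knockdown as described with Ndrg4. The oxygen-regulated factors Epas1 and Hif1a stood at 144 and 120 CPM in knockdown 3, against controls of 130 to 139 and 118 to 148 CPM. Vhl, listed with Egln1, stood there at 28.7 CPM, against controls of 30.1 to 33.3 CPM. The part of oxygen in these values was not tested.

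**Figure D2:**
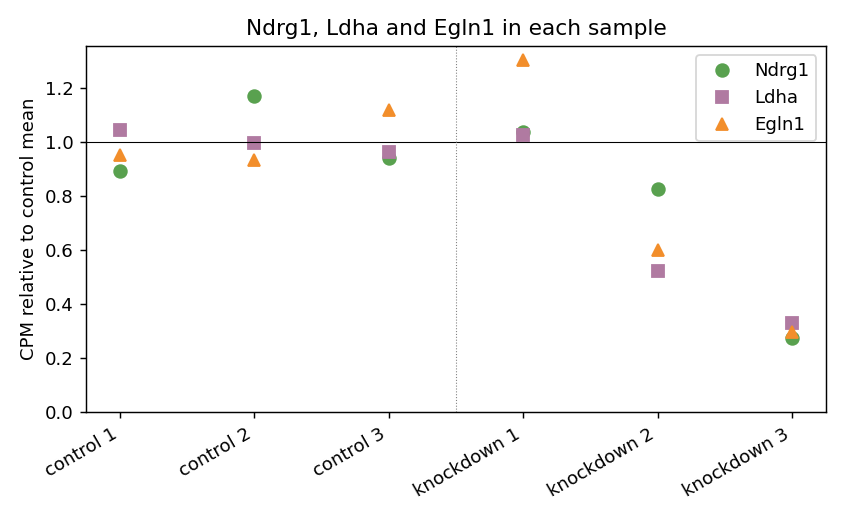
CPM of Ndrg1, Ldha and Egln1 in each of the 6 samples, divided by the mean of the 3 controls for each gene (the line at 1 is that mean). Knockdown 3 is the lowest sample for all 3 genes, at 0.274, 0.329 and 0.297, and knockdown 1 is within the control range for Ndrg1 and Ldha.

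Ndrg3 (ENSMUSG00000027634; chromosome 2, 156927345 to 156992056, minus strand) was the steadiest member. It had 60.8, 67.0 and 62.5 CPM in the controls and 70.2, 68.9 and 73.3 CPM in the knockdown, from 135 to 998 counts a sample. Every knockdown sample lay above every control, by little. The log2 fold change was 0.16 (SE 0.14, 95% interval -0.15 to 0.47). With library totals alone as the scale it was 0.55, where the median of all genes moved by 0.37 as well.

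Ndrg4 (ENSMUSG00000036564; chromosome 8, 95676980 to 95715119, plus strand) was the scarcest member in the controls. It had 17, 3 and 15 counts in the controls and 3, 33 and 62 counts in the knockdown, which are 2.72, 1.49 and 2.58 CPM and 0.431, 3.86 and 4.55 CPM. Knockdown 1 lay below the controls and the other knockdown samples above them, so the groups overlapped. The log2 fold change was 0.34 (SE 0.68, 95% interval -1.20 to 1.89), and without knockdown 3 it turned to -0.11. With chromosome medians removed it was 0.73. On chromosome 8, 90.1% of the 624 tested genes had a log2 fold change below 0, with a median of -0.38, against 47.3% of the genes on other chromosomes. The neighbours of Ndrg4 followed that pattern in sign, with -0.58 (SE 0.61) for Gins3 and -0.84 (SE 0.38) for Setd6, and neither passed the edgeR test (adjusted p = 0.754 and 0.406).

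Of the 4 members, which all passed the filter, 1 passed the edgeR threshold, Ndrg2, beside 1.22% of all tested genes in either direction, 0.909% lower and 0.315% higher in the knockdown. DESeq2 called 1 member too, beside 3.2% of its 13454 tested genes. The groups did not overlap for 2 members, Ndrg2 with the knockdown lower and Ndrg3 with the knockdown higher, as for 18.5% of all tested genes, 9.55% lower and 8.96% higher. With 3, 1 and 8 counts in the knockdown, Ndrg2 passed the filter on low counts through the controls alone. Its edgeR call was lost with the replicate block, without control 1 and without control 2. For these reasons, and because Ndrg2 chose the family, nothing is read from either count.

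**Figure D3:**
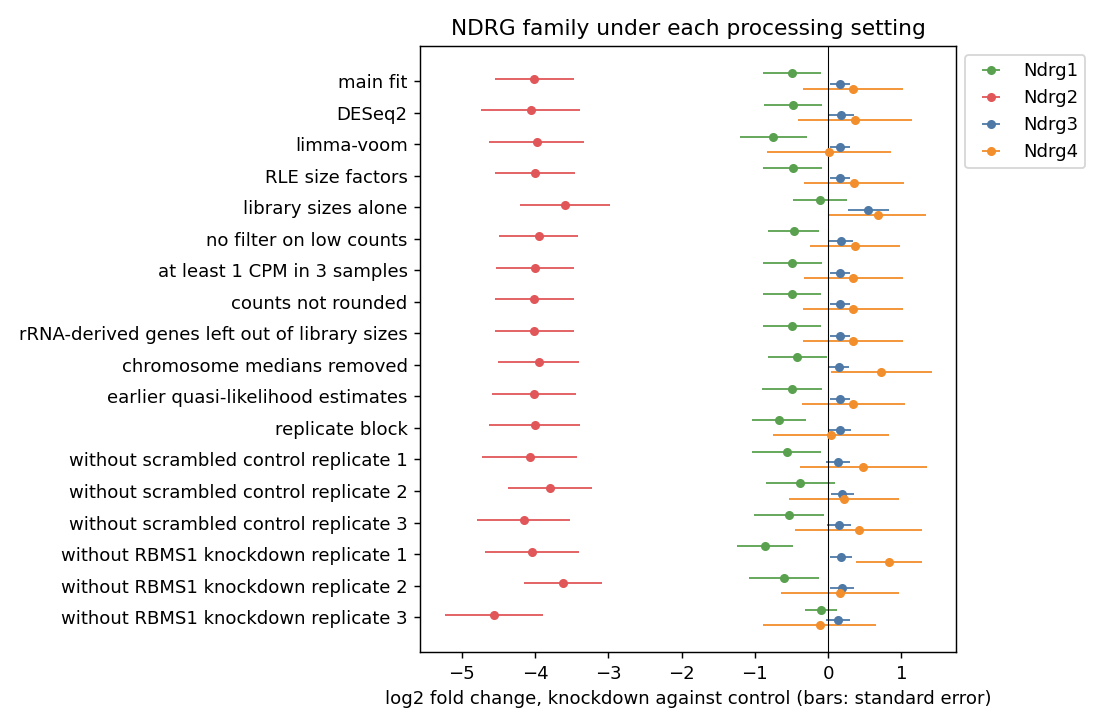
Log2 fold change of each NDRG gene, knockdown against control, in the main fit and under each of 17 other settings, with standard errors as bars. Ndrg2 lies between -4.56 and -3.59 in all of them, Ndrg3 between 0.14 and 0.55, and Ndrg4 crosses 0 when knockdown 3 is left out.

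Levels of different genes were compared as RPKM, CPM per kilobase of exonic length. In the controls Ndrg3 was highest at 7.56 ± 0.385 RPKM, followed by Ndrg1 at 4.50 ± 0.672, Ndrg2 at 2.01 ± 0.540 and Ndrg4 at 0.463 ± 0.138 (SD, n = 3 each). The ranges over the controls did not overlap between neighbours in this order. Against all 11402 tested genes with an exonic length, Ndrg3 was above 63.5% of them, Ndrg1 above 47.1%, Ndrg2 above 24.6% and Ndrg4 above 3.79%. In the knockdown Ndrg3 was at 8.44 ± 0.270 RPKM, Ndrg1 at 3.21 ± 1.77, Ndrg4 at 0.602 ± 0.451 and Ndrg2 at 0.111 ± 0.0705 (SD, n = 3 each). Ndrg2 had the lowest mean of the 4 there, although its range of 0.0344 to 0.173 RPKM overlapped that of Ndrg4, 0.0881 to 0.930 RPKM.

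Ndrg2 made up 13.2%, 16.2% and 11.7% of the summed RPKM of the family in the controls and 0.959%, 0.270% and 1.56% in the knockdown. With coding length in place of exonic length its mean control share was 6.99% in place of 13.7%. The share of Ndrg3 went from 52.2% ± 2.46 to 68.8% ± 8.75 and that of Ndrg1 from 30.9% ± 1.55 to 25.2% ± 12.5 (SD, n = 3 each). The family summed to 13.6, 16.2 and 13.8 RPKM in the controls and to 13.2, 12.8 and 11.1 RPKM in the knockdown. Within a sample, where library scaling has no effect, Ndrg1 was 2.24, 2.0 and 2.61 times Ndrg2 in the controls and 36.7, 108 and 7.15 times in the knockdown. On coding length the ratios were 4.03, 3.61 and 4.70 in the controls and 66.2, 195 and 12.9 in the knockdown. The smallest of the knockdown ratios came from knockdown 3, where Ndrg1 was low.

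**Figure D4:**
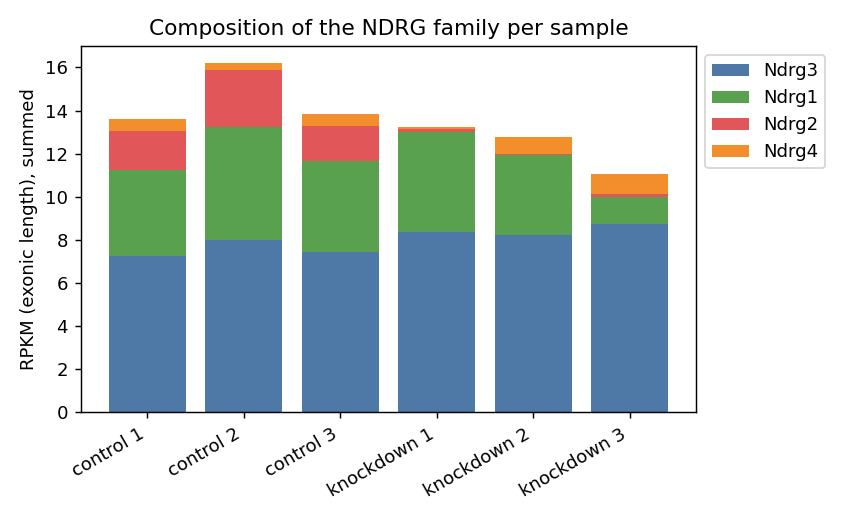
RPKM of the 4 NDRG genes stacked per sample, in RPKM on exonic length. The Ndrg2 segment is 11.7% to 16.2% of the bar in the controls and 0.270% to 1.56% in the knockdown, and the bar is shortest, 11.1 RPKM, in knockdown 3.

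The coding sequences of the members were 64.6% to 69.5% identical over the aligned bases, in the transcript with the longest coding sequence per gene, and 66.4% to 70.0% in the longest transcript. The longest run of bases shared by any pair was 32, between Ndrg2 and Ndrg4. How the authors' estimates split reads between the members was not examined.

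RNA-binding domains of the RBMS family are known to favour AU-rich letters such as AUAUA, so the 3′ UTR of each member was searched for ATATA. In the transcript with the longest coding sequence, Ndrg4 had 7 matches in 1624 bases and the other members had 0, in 1549 bases for Ndrg1, 869 for Ndrg2 and 1355 for Ndrg3. The Ndrg3 count depends on the transcript, since its longest transcript, the one searched first, has a 3′ UTR of 3179 bases with 2 matches. Of the tested genes, 55.2% held a match, or 58.8% with the longest transcripts. Matches 1 to 6 of Ndrg4 overlap in 1 repeat, and the first and the last match are shown with ATATA in capitals.
Ndrg4 match 1: cctatacattATATAtatatatata
Ndrg4 match 7: aaaatccttgATATAgaaagttaac
These matches are descriptions of the letters alone.

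The genes with the pattern most like Ndrg2 over the 6 samples, of 11439 compared by Pearson correlation of log2 CPM with a prior count of 2, were Anxa7 (r = 0.993), Eif3l (0.992), Vps4a (0.990), Fech (0.990) and Pdzd2 (0.988). The 6 points share their libraries and their split into groups. Their differences were much smaller than that of Ndrg2, from a log2 fold change of -0.28 for Fech to -1.21 for Pdzd2, and carry no test, since the genes were picked for the pattern that splits the groups.

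Of 33 regulators and partners of NDRG proteins, 30 were tested and 0 passed the edgeR threshold, beside 1.22% of all tested genes, and DESeq2 called 0 as well, beside 3.2%. An unadjusted p under 0.05 was found for 5, beside 12.4% of all tested genes. Their log2 fold changes were below 0 for 19 and had a median of -0.02, beside 0.0044 over all tested genes, and 5 had groups that did not overlap, beside 18.5% of all tested genes. Among the kinases, Sgk1 had -0.41 (SE 0.26), Akt1 0.47 (SE 0.23) and Akt2 0.22. Sgk3, a relative of Sgk1 chosen after its values were seen, had 0.83 (SE 0.39, edgeR adjusted p = 0.425). Single knockdown samples moved these values, Sgk1 to -0.18 without knockdown 1 and -0.71 without knockdown 2, Akt1 to 0.23 without knockdown 3 and Akt2 to 0.05 without knockdown 1. The mTORC2 genes lay close to 0, with a median of 0.06 over 4.

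Myc, which represses Ndrg1 and Ndrg2, stood at 71.7, 56.1 and 41.6 CPM in the controls and at 25.3, 47.3 and 29.1 CPM in the knockdown, with a log2 fold change of -0.74 (SE 0.27, edgeR adjusted p = 0.307). Its groups overlapped. Hif1a, the oxygen-regulated factor, had -0.19 (SE 0.15) and Nr3c1, the glucocorticoid receptor, -0.01 (SE 0.14). Among the partners, Rab4a, a recycling endosome GTPase bound by NDRG1, had -1.02 (SE 0.28, edgeR adjusted p = 0.157) and lies on chromosome 8. With chromosome medians removed it had -0.64 (edgeR adjusted p = 0.479). Without knockdown 1, 4 genes of the list passed, Akt1, Rab4a and Ldha among them, where 5.94% of all tested genes passed.

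**Figure D5:**
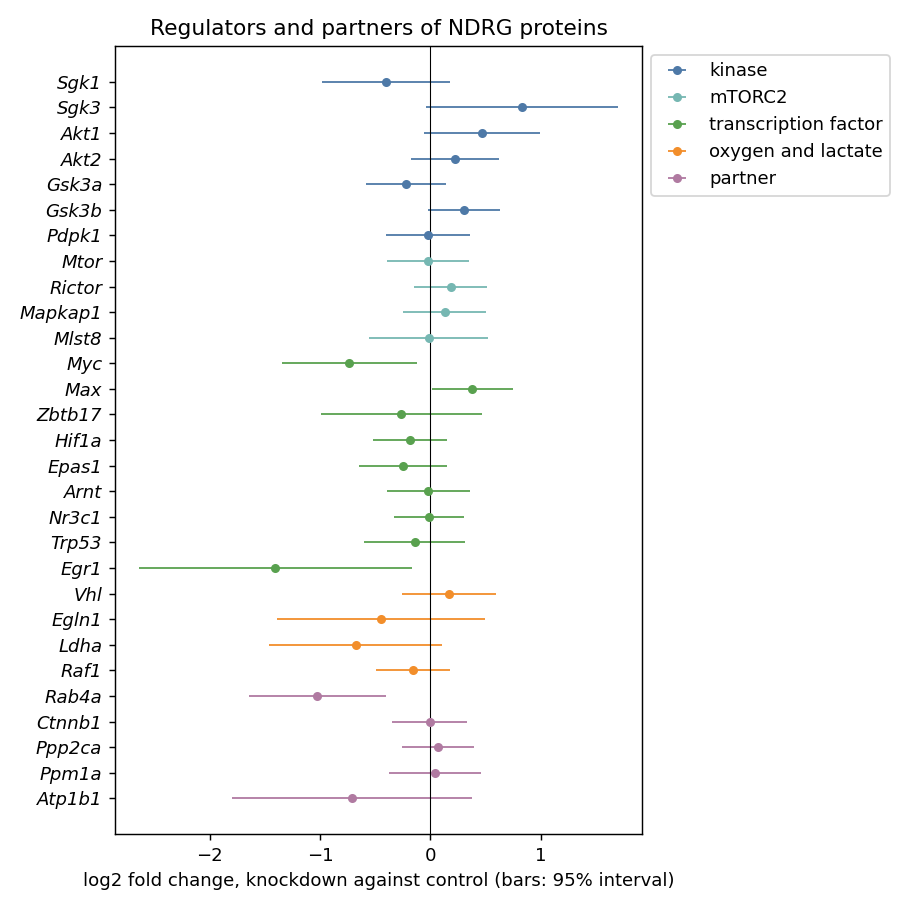
Log2 fold change, knockdown against control, of 29 of the 30 tested regulators and partners of NDRG proteins, coloured by role, with 95% intervals from the edgeR fit. None passed the edgeR threshold, and the largest differences in size, Egr1 and Rab4a, were -1.40 and -1.02.

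Of 28 other genes with an alpha/beta hydrolase fold, 24 were tested, with a median log2 fold change of -0.05. Past the threshold were Abhd18 and Mest, both lower in the knockdown. Mest had no count in the knockdown, passed the filter on low counts through the controls alone and so had to differ, so it is given with no p and the count of 2 is not set against the background. Mest, a protein of the endoplasmic reticulum known to rise as adipocytes expand, had 9.46, 4.47 and 1.89 CPM in the controls and no count in the knockdown. That is at least 15.8-fold lower against a floor of 3 counts in each knockdown library, and at least 9.52-fold without control 1. Abhd18, listed under an older symbol, had 10.3, 19.4 and 11.5 CPM in the controls and 4.74, 4.91 and 5.51 CPM in the knockdown (log2 fold change -1.40, SE 0.30, edgeR adjusted p = 0.0924). It lies in the first 50 Mb of chromosome 3, a window chosen after values were seen, where 90.0% of 90 tested genes were below 0 with a median of -0.63. Its log2 fold change was -1.26 with chromosome medians removed and -1.57 to -0.96 over 17 other settings. The call was lost in 10 of them, edgeR's earlier estimates and the fits without any 1 of the controls, knockdown 2 or knockdown 3 among them (edgeR adjusted p up to 0.291). Abhd5, the activator of the lipase Pnpla2, had -0.39 (SE 0.20, edgeR adjusted p = 0.478), and -0.65 (edgeR adjusted p = 0.0425) without knockdown 1 and -0.25 (edgeR adjusted p = 0.715) without knockdown 3.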

How the data were processed

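RNA was sequenced from 6 samples of 3T3-L1 cells on day 7, 3 per group, grouped by the sample titles. According to the submitters' processing notes and the methods, the authors prepared stranded total RNA libraries, trimmed reads with Trim Galore 0.6.7, used STAR 2.7.10a for alignment to GRCm38, and deposited expected counts per gene from Salmon 1.9.0, without normalization. The annotation release is not given in the sources used here. The counts were rounded and fitted on the group by edgeR 4.0.16 under R 4.3.3, after filterByExpr and TMM, with glmQLFit and glmQLFTest, with Benjamini-Hochberg adjustment over all 11440 tested genes and a threshold of 0.1. CPM used TMM-scaled library sizes, and exonic and coding lengths came from GENCODE M21. The smallest p of an exact permutation of 3 against 3 samples is 0.1, so none was used. The code was tested on simulated counts. A count of 3 was worth 0.220 to 1.49 CPM, and intervals and floors cover counting error only.

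The members and the gene lists were chosen with earlier results of these data known. The genes named are the 4 members, Rbms1, the genes nearest to each member, the 5 genes most like Ndrg2, the markers, the called genes of the lists and Sgk1, Akt1, Akt2, Myc, Hif1a, Nr3c1, Rab4a, Ldha and Abhd5. A gene of the regulator list is counted but not reported here by name. Egln1, Egr1, Sgk3, Epas1 and Vhl were added after their values were seen.

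Several choices were made after results were seen. The fit used edgeR's newer quasi-likelihood estimates (140 genes called) in place of the default of this version (122 called), after both counts were known, to match an earlier analysis of these data. The 4 promoter motifs, the 1 UTR motif and the sequence comparisons were chosen once the files were in hand. The transcript taken per gene was changed from the longest to the one with the longest coding sequence after the first results were seen, because the longest Ndrg3 transcript has a short coding sequence, and both versions are given. Promoter windows came from RefSeq, with 3 for Ndrg2, 2 for Ndrg3, 4 for Ndrg4 and none available for Ndrg1. Alternatives were DESeq2 1.42.0, limma-voom (limma 3.58.1), other scalings and filters, chromosome medians removed, a replicate block and each sample left out.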

Additional observations from a re-analysis of the deposited data

How the results depend on the processing

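Ndrg2, whose counts chose the family, had log2 fold changes of -4.56 to -3.59 over 17 refits of the same counts, which the choice makes a description and no sign of stability, and was short of the threshold without control 1, without control 2 and with the replicate block. Without control 2, the library with the most ribosomal RNA counts, 12 genes were called. Genes called numbered 430 by DESeq2, 268 with no filter on low counts, 73 with chromosome medians removed, 39 with the replicate block and 12 to 696 with 1 sample left out (696 without knockdown 1), against 140. NDRG members called fell to 0 with the block and to 0 to 1 with 1 sample left out. The regulator list gave 0 to 4 with 1 sample left out. The hydrolase list gave 1 with limma-voom, with library sizes alone, with chromosome medians removed and with edgeR's earlier quasi-likelihood estimates (added after seeing the data), 0 with the block, and 0 to 4 with 1 sample left out. In each of the settings with 1 call the gene was Mest, which had to differ, and the 4 came without knockdown 1, where 5.94% of all tested genes passed. Rbms1 passed without knockdown 3 (-0.92), over a range of -0.92 to -0.52 with 1 sample left out and up to -0.31 over all alternatives. The control share of Ndrg2 was 6.99% with coding length. Ndrg4 turned to -0.11 without knockdown 3, over a range of -0.11 to 0.83. Library sizes alone moved the median of all genes by 0.37, and Hif1a moved with it to 0.20. Nr3c1 turned to 0.0036 with DESeq2, 0.36 with library sizes alone, 0.010 with no filter, 0.065 without control 3 and 0.042 without knockdown 2, over a range of -0.048 to 0.065 with 1 sample left out. ATATA matches in Ndrg3 went from 0 to 2 with the longest transcript. The causes were not tested. Of the called genes 74.3% were lower, and 33.3% with library sizes alone.

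Whether same-numbered samples were handled together is not given. Their deviations from the group means correlated at -0.144, 0.0785 and -0.0284, which cannot settle it with 3 samples per group. The replicate block called 39 genes. Not every sample correlated best with its own number. Ndrg2 and Ndrg4 rest on few counts, and Ndrg4 spread widely within the knockdown, so that its SE was 0.68 and 0.45 without knockdown 1.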
